A study of Mus musculus with 4 samples.

Results

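Transcripts of 10 genes of the ETS transcription factor family, Ets1, Ets2, Elf1, Elf2, Elf4, Elk3, Etv3, Etv6, Fli1 and Gabpa, were measured in mouse bone marrow-derived macrophages with and without lipopolysaccharide (LPS). The genes were taken by name, and every probe set whose platform annotation gives 1 of these symbols alone was used. Affymetrix arrays read a transcript with such a set of short oligonucleotides. This gave 28 probe sets for 10 genes, of 34945 probe sets for 18193 genes in all, and no probe set was annotated to a member together with another gene. The arrays were DKO cells (knockout of both Hes1 and Hey1, which encode repressors induced by Notch signalling) with LPS, DKO cells untreated, wild type (WT) cells with LPS and WT cells untreated. All were on a C57BL/6 background and were grown for 5 days in 10% serum and 10% L929 cell supernatant, a source of macrophage colony-stimulating factor. LPS, which activates the receptor TLR4, was given at 2 ng/ml for 3 h. The sources used here state neither how the knockouts were made nor how many mice gave cells to an array. Each group had 1 array, so no value has a replicate error, nothing was tested, and a group cannot be told apart from its culture or array. All comparisons draw on the same 4 arrays, so an LPS comparison and a genotype comparison that share an array are not independent.

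ETS proteins bind DNA through a shared winged helix-turn-helix domain that recognises sites with a GGAA core. Some activate transcription once a MAP kinase phosphorylates them, as ERK does to ETS2, while others, such as ETV3 and ETV6, mainly repress. In macrophages the family is best known through PU.1, the product of Spi1, which sets up the lineage, and through ETS2, a target of growth factor and Toll-like receptor signalling.

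Ets2, Etv3 and Etv6 read higher with LPS on every probe set above background in both genotypes, and the 250 bases before their start sites are shown for that reason (RefSeq, build GRCm38.p6, all on the plus strand, 5′ to 3′). Capitals mark matches to any of 9 motifs searched on both strands: ETS (CGGAAGT), AP-1 (TGANTCA), CRE (TGACGT), STAT (TTCNNNGAA), the E box (CACGTG), the HES class C site (CACGCG), the N box (CACNAG), and NF-kB and CArG sites by name. The E box, class C site and N box are the elements that HES and HEY proteins are known to bind.
Ets2, chr16:95702157-95702406: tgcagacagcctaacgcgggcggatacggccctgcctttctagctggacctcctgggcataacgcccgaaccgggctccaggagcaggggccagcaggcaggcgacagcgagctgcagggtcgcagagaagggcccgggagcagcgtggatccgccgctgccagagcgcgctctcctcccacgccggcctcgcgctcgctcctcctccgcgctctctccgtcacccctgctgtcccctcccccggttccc
Etv3, chr3:87525328-87525577: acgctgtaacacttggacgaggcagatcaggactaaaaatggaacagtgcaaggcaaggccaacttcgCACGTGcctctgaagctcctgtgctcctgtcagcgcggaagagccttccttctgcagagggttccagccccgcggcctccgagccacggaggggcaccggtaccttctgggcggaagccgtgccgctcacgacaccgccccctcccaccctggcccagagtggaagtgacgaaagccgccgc
Etv6, chr6:134035450-134035699: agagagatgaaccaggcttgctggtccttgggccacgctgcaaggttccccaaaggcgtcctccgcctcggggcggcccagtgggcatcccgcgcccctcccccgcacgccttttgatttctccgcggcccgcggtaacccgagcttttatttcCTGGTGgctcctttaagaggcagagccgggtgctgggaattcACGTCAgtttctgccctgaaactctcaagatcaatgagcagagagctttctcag

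The Ets2 window held no match. The Etv3 window held 1 E box, at -182 to -177 from the start, and such a box is found in 6.02% of the 32851 promoter windows of the RefSeq table. The Etv6 window held an N box at -96 to -91 and a CRE match at -54 to -49, motifs found in 36.7% and 6.47% of all windows. Promoter windows were matched for 8 of the 10 genes (11 windows), the others being Ets1 and Fli1. Elf4 was the only other matched member with an E box, and no window of the 8 genes held an ETS, class C, NF-kB or CArG match. AP-1 matches stood in windows of Elf1, Elf2 and Elf4, and Elf2 windows also held a STAT match and an N box. Over all windows the shares were 4.92% for ETS, 6.75% for AP-1, 7.02% for STAT, 7.62% for class C, 3.90% for NF-kB and 1.47% for CArG sites. Such matches are descriptions of letters, not of binding, and the matches shown do not overlap.

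Each array was scaled to the same trimmed mean, and its median intensity was 50.8 and 51.0 on the DKO arrays with and without LPS, against 50.9 and 59.1 on the WT arrays with and without LPS. Values under 52.9 units, the median of all probe sets, were set to that floor for differences on the log2 scale, and where 1 of the arrays compared fell under the floor the result is a bound. Genes were read by their brightest probe set, and a gene is called higher or lower at a difference of at least 2-fold. Hes1 gave 2.14 to 5.80 units on the DKO arrays and 26.7 to 45.4 on the WT arrays, and Hey1 gave 9.17 to 10.2 against 17.3 to 57.2, so only Hey1 in untreated WT cells passed the floor and the targeted genes check the labels weakly. Macrophage markers, among them Csf1r, Adgre1 and Lyz2, were above the floor on all arrays for 8 of 8 measured. They were not all steady with LPS. Cd14 was called higher, by 2.50-fold in DKO and 2.94-fold in WT cells, and Mertk lower, by 4.86-fold and 3.24-fold. Of markers of other cells, 1 of 8 measured for neutrophils passed the floor on any array (S100a8, at 284 to 465 units). It was 1 of 6 for B cells (Vpreb3, at 37.8 to 101, above the floor only on the WT arrays) and 1 of 6 for dendritic cells (Itgax, at 265 to 309). With values under the floor included, these lists summed to 382 to 629, 137 to 204 and 365 to 424 units. For T and NK cells 3 of 7 measured passed the floor on some array, and for endothelial and stromal cells 2 of 8. Of these, Cd2 and Kdr were above it on all arrays. Among the markers of these lists, Cd3e, Cd3d, Cd3g, Cd79a, Cd79b, Ms4a1, Flt3, Zbtb46, Pecam1 and Cdh5 were under the floor on all arrays.

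Ets2, an ERK-activated transcription factor, was by far the most LPS-responsive of the 10 genes. Its brightest probe set, 1416268_at, read 9371 units in DKO cells with LPS and 219.8 in untreated DKO cells, against 6389 in WT cells with LPS and 243 in untreated WT cells. Both LPS arrays thus stood far above both untreated arrays, and the LPS effect was 42.6-fold in DKO and 26.3-fold in WT cells. Among genes above the floor on both arrays, this was the rank 11 increase of 10234 genes in DKO cells and rank 7 of 10378 in WT cells. The second probe set, 1447685_x_at, gave 1645 and 63.4 units in DKO cells with and without LPS, against 869 and 93.1 in WT cells with and without LPS. The name ending of this probe set means that some of its probes may match other transcripts, and its untreated values lie close to the floor. Its LPS effects were 25.9-fold in DKO and 9.33-fold in WT cells. The third, 1437809_x_at, stayed under the floor on all arrays at 20.7 to 49.6 units.

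**Figure D1:**
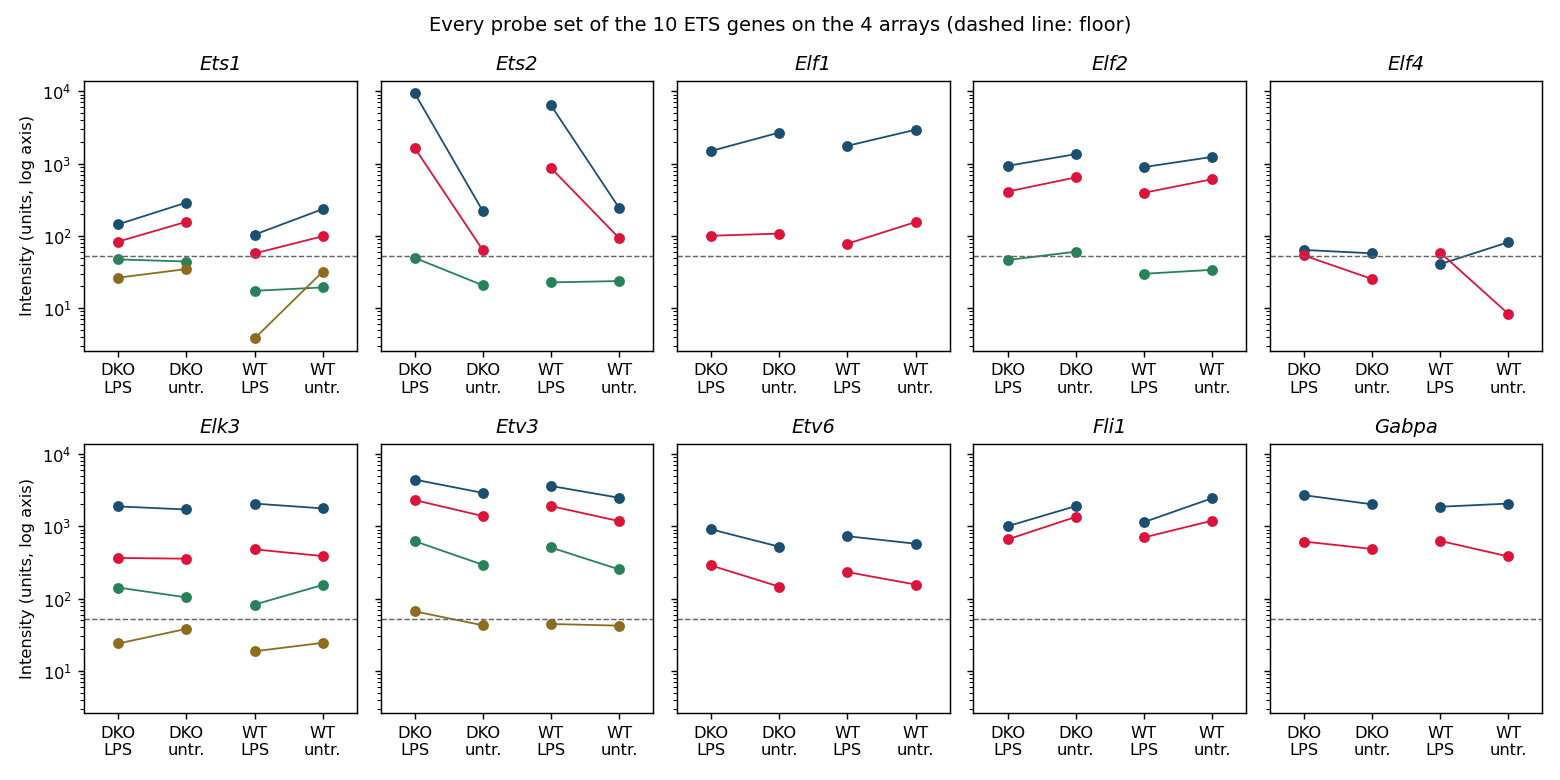
Intensity (log axis) of each of the 28 probe sets on the 4 arrays, 1 panel per gene, with 1 colour per probe set and lines joining the LPS and untreated array of a genotype; the dashed line is the floor of 52.9 units. Ets2 stands 26.3-fold to 42.6-fold higher with LPS on its brightest probe set, while the probe sets of other genes that pass the floor on every array stay within 2.26-fold.

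The repressor gene Etv3, known in mouse macrophages as METS and linked to exit from the cell cycle, also read higher with LPS. Its brightest probe set, 1418637_at, gave 4418 and 2896 units in DKO cells with and without LPS, against 3607 and 2476 in WT cells with and without LPS. All 4 values were ordered alike on the next probe set, 1418635_at, at 2302 and 1383 in DKO cells and 1902 and 1177 in WT cells. The LPS arrays exceeded the untreated ones in both genotypes, by 1.53-fold and 1.66-fold in DKO cells and by 1.46-fold and 1.62-fold in WT cells on these 2 probe sets. Its dimmer probe set 1456358_at gave 622 and 293 units in DKO cells with and without LPS, against 509 and 253 in WT cells with and without LPS, which is 2.12-fold and 2.01-fold. The size of the Etv3 response thus depended on the probe set, and its direction did not. Its dimmest probe set, 1418636_at, passed the floor only in DKO cells with LPS, at 66.5 units.

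Etv6, which encodes the repressor TEL needed for blood stem cells, also read higher with LPS, by a larger fold in DKO than in WT cells on both probe sets. Its probe set 1434880_at gave 907 and 521 units in DKO cells with and without LPS, against 728 and 573 in WT cells with and without LPS, or 1.74-fold and 1.27-fold. The probe set 1423401_at gave 287 and 146 units in DKO cells, against 232 and 156 in WT cells, or 1.96-fold and 1.48-fold. The DKO array with LPS was the highest on both probe sets.

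Ets1 and Fli1 read lower with LPS. Ets1 encodes a close relative of ETS2 known for its part in lymphocytes, and FLI1 acts in blood and vessel development. They are neighbours on chromosome 9 with 0 protein-coding genes between them in the RefSeq table. Ets1 probe set 1452163_at gave 145 and 289 units in DKO cells with and without LPS, against 104 and 234 in WT cells with and without LPS. This was a log2 difference of -0.999 in DKO cells, just short of 2-fold, and -1.17 in WT cells. The probe set 1426725_s_at went the same way, at 83.3 and 157 units in DKO cells and 57.1 and 98.8 in WT cells (-0.91 and -0.79). Its name ending also marks possible matches to other transcripts. The 2 further Ets1 probe sets were under the floor throughout, at 3.81 to 47.2 units.

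Fli1 probe set 1433512_at gave 1001 and 1900.0 units in DKO cells with and without LPS, against 1139 and 2438 in WT cells with and without LPS, log2 differences of -0.92 and -1.10. Its other probe set, 1422024_at, gave 657 and 1346 units in DKO cells, against 699.6 and 1192 in WT cells, differences of -1.03 and -0.77. Both probe sets of each gene thus lay between 1.70-fold and 2.26-fold lower, and the calls at 2-fold differed between probe sets. Scaling moved the calls too. With array medians set equal the WT differences were -0.96 for Ets1 and -0.88 for Fli1, and Ets1 also missed 2-fold in WT cells with quantile normalization (-0.99) and loess (-0.92). In a bulk sample, fewer cells of a type and less RNA per cell cannot be told apart. Progenitor markers, of which 5 of 7 were above the floor on some array, also summed lower with LPS, at 553 and 1602 units in DKO cells with and without LPS and 928 and 1970 in WT cells. Most of that came from Sox4, at 25.5 and 888 units in DKO cells and 27.7 and 711 in WT cells. Myb and Cpa3 stayed under the floor. Kit, Cd34 and Meis1 were also lower with LPS in both genotypes. Meis1 passed the floor only without LPS, and was at least 1.62-fold lower in DKO cells and, as a call, at least 2.01-fold lower in WT cells. Gata2, above the floor on all arrays, was higher with LPS, at 0.30 in DKO and 0.21 in WT cells. Of T and NK cell markers 3 of 7 passed the floor on some array, and the list also summed lower with LPS, at 226 and 257 units in DKO cells with and without LPS and 209 and 313 in WT cells. Such sums hold values under the floor too. Cd2, above the floor on all arrays, was 1.504-fold lower with LPS in DKO cells and 1.61-fold lower in WT cells. Cd8a was at least 1.58-fold lower with LPS in WT cells but at least 1.17-fold higher in DKO cells. Cd5 passed the floor only in untreated WT cells, and Cd3e, Cd3d, Cd3g and Ncr1 on no array. Endothelial and stromal markers summed to 547 and 758 in DKO cells and 535 and 788 in WT cells, with Kdr and Pdgfrb above the floor of 8 measured. With LPS, Kdr was 2.22-fold lower in DKO cells and 1.72-fold lower in WT cells. Pdgfrb went the other way, under the floor without LPS and at least 2.72-fold and 1.17-fold higher with it. Megakaryocyte and erythroid markers, 3 of 5 above the floor on some array (Itga2b, Gp9 and Klf1), summed higher with LPS. They gave 322 and 234 units in DKO cells with and without LPS and 293 and 250 in WT cells. Gp9 was 1.95-fold higher with LPS in DKO cells and 1.32-fold higher in WT cells. Itga2b was 1.19-fold higher in DKO and 1.09-fold lower in WT cells, and Gata1 was under the floor. The part of these cells in the Ets1 and Fli1 values was not tested.

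The ELF genes, a branch with mostly activating members, read lower with LPS where they were bright. Elf1 probe set 1417540_at gave 1493 and 2685 units in DKO cells with and without LPS, against 1758 and 2937 in WT cells with and without LPS, differences of -0.85 and -0.74. Elf2 probe set 1418275_a_at gave 929.3 and 1349 units in DKO cells with and without LPS, against 893 and 1235 in WT cells with and without LPS, differences of -0.54 and -0.47. The Elf2 probe set 1428045_a_at went the same way (-0.65 and -0.62). None of these passed 2-fold. The dimmest Elf2 probe set, 1418276_at, passed the floor only in untreated DKO cells, at 60.4 units. Elf4, known for a role in interferon induction, could hardly be measured: 1421337_at gave 63.8 and 57.4 units in DKO cells with and without LPS, against 40.6 and 81.8 in WT cells with and without LPS, and 1421338_at gave 53.6 and 25.3 against 58.7 and 8.33. On the first, LPS left WT cells at least 1.54-fold lower, a bound, and DKO cells at 0.15 higher on the log2 scale.

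Elk3, the ternary complex factor NET that works beside serum response factor, differed little on its bright probe sets. Its probe set 1448797_at gave 1880.2 and 1706 units in DKO cells with and without LPS, against 2058 and 1766 in WT cells with and without LPS, differences of 0.14 and 0.22. The probe set 1435143_at gave 365 and 356 against 479 and 387 (0.04 and 0.31). The dimmest, 1445886_at, stayed under the floor at 18.7 to 38.1 units. Gabpa, the DNA-binding subunit of GABP, known for control of nuclear genes of mitochondrial proteins, gave probe sets that disagreed. Its probe set 1450664_at gave 2689.5 and 2009.9 units in DKO cells with and without LPS, against 1860.3 and 2059 in WT cells with and without LPS, whereas 1450665_at gave 615 and 485 against 627 and 382. The LPS effect in WT cells was therefore -0.15 on the first and 0.72 on the second, while in DKO cells it was 0.42 and 0.34. With array medians set equal, the first WT value was 0.07.

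The dim probe sets Elf1 1439319_at, Elk3 1417662_at and Elf4 1421337_at shared a pattern, reading highest in untreated WT cells and lowest in WT cells with LPS. Elf1 1439319_at gave 100.3 and 108 units in DKO cells with and without LPS, against 77.9 and 155 in WT cells, and Elk3 1417662_at gave 142 and 104 against 82.5 and 154. The Elf1 set was lower with LPS in WT cells, as was the brighter set, but stood at -0.10 in DKO cells, and the Elk3 set had opposite signs at 0.45 in DKO and -0.90 in WT cells. Of all 4855 probe sets above the floor on every array with a mean under 200 units, 14.4% had this order of arrays. The share was 11.1% of 7958 with a mean from 200 to 1000, and 6.72% of 7082 with a mean of at least 1000. The Elf4 probe set, under the floor in WT cells with LPS, lies outside these counts.

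**Figure D2:**
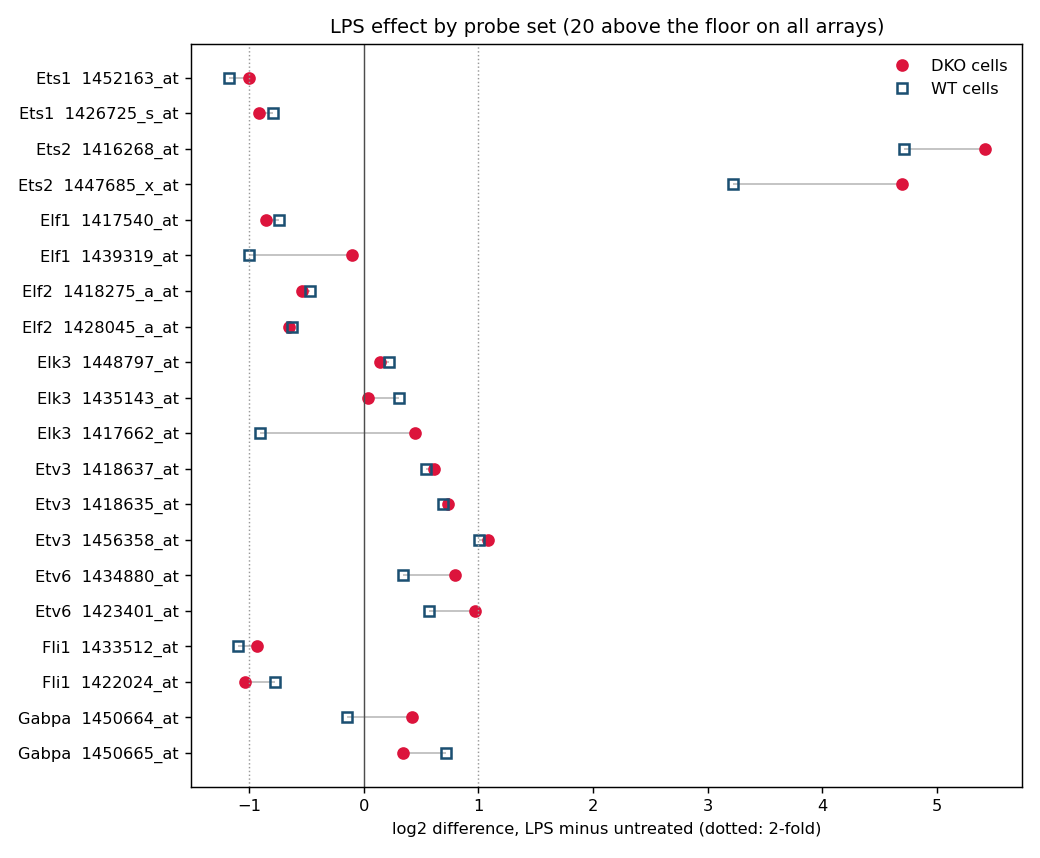
LPS effect (log2 difference, LPS minus untreated) of the 20 probe sets that passed the floor on every array, with filled circles for DKO cells, open squares for WT cells and dotted lines at 2-fold. Ets2 lies at 3.22 to 5.41, Etv3 and Etv6 at 0.35 to 1.08, and Ets1, Fli1, Elf2 and the brighter Elf1 probe set between -1.17 and -0.47.

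By brightest probe set, 1 of 10 genes was called higher with LPS in DKO cells (Ets2) and 0 lower, against 4.66% of 11240 genes called higher and 4.77% called lower. In WT cells 1 was called higher (Ets2) and 2 lower (Ets1 and Fli1), against 3.36% of 11489 genes higher and 3.41% lower. With 10 genes a single call is 10% of them, and the counts are not read as above the background. The median size of the LPS effect regardless of direction was 0.70 for the members and 0.29 for all genes in DKO cells, and 0.59 and 0.27 in WT cells. The median with its sign was 0.15 against -0.10 for all genes in DKO cells, and -0.31 against -0.09 in WT cells. All of the 20 probe sets above the floor on every array had the same sign in both genotypes except Elk3 1417662_at and Gabpa 1450664_at. The WT and DKO effects share no array. The share over all probe sets was not counted, and the 20 hold several per gene, so this is not read as a trait of the members.

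**Figure D3:**
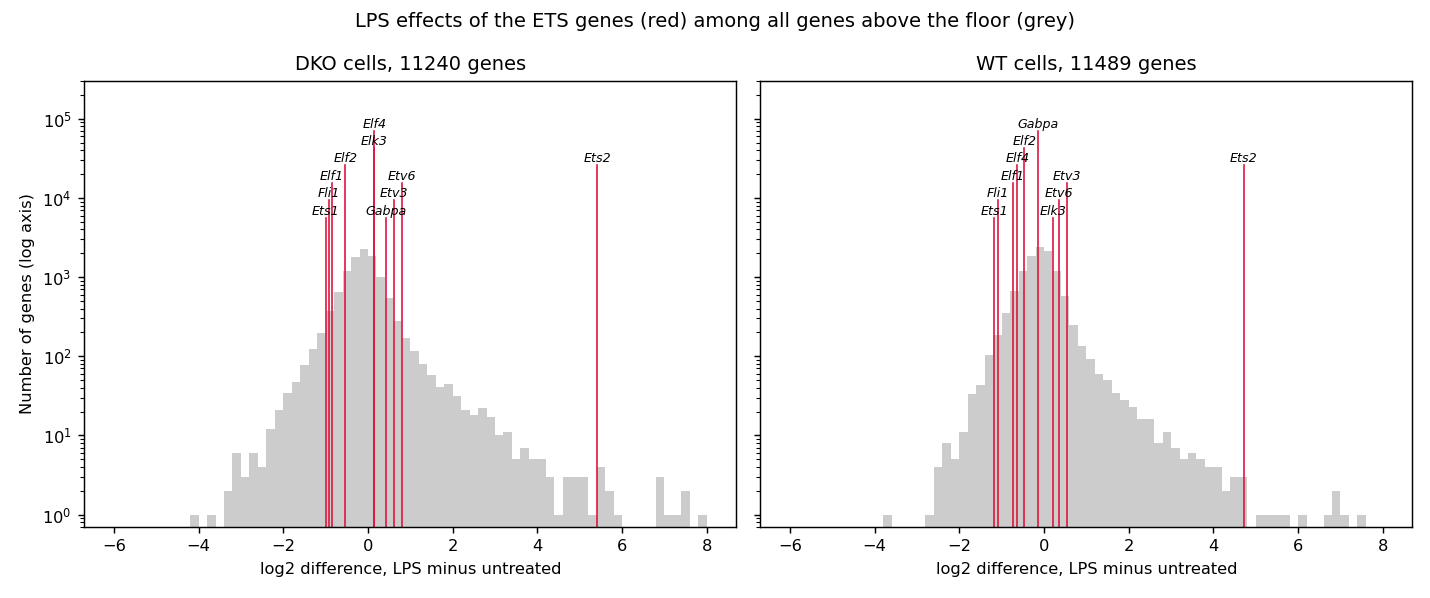
Number of genes (log axis) by LPS effect (log2 difference, LPS minus untreated) in DKO cells, left, and WT cells, right, with the 10 ETS genes marked in red by their brightest probe set. Ets2 lies in the far upper tail at 5.41 and 4.71, and the other 9 genes lie between -1.17 and 0.80.

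Set between genotypes, no member reached 2-fold with or without LPS. With LPS, 0 of 10 genes were called in either direction, where 0.845% of 11236 genes were called higher and 0.934% lower in DKO cells. In untreated cells the members' count was again 0 of 10, with 0.466% of 11379 genes higher and 0.984% lower. The median difference was 0.28 for the members and -0.04 for all genes with LPS, and -0.09 and -0.02 without. Its median size regardless of direction was 0.28 for the members and 0.17 for all genes with LPS, and 0.14 and 0.17 without. As a guide to size, the 2 brightest probe sets of a gene read genotype differences a median of 0.18 apart with LPS and 0.20 apart without, over 4698 genes with both above the floor. That gap describes agreement within arrays, not variation between cultures.

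With LPS, Ets2, Ets1, Etv3 and Etv6 were higher in DKO cells by more than that gap on each of their probe sets above the floor throughout. Differences of this size were common: by brightest probe set 9.28% of 10305 genes lay at least as far from 0 as Ets2, 12.5% as far as Ets1, 24.8% as far as Etv6 and 27.7% as far as Etv3. Ets2 was higher in DKO cells with LPS by 1.47-fold and 1.89-fold on its probe sets, yet lower in untreated DKO cells by 1.11-fold and 1.47-fold. Its untreated difference turned from -0.15 to 0.07 on the brightest probe set when array medians were set equal. Ets1 was higher in DKO cells by 1.39-fold and 1.46-fold with LPS and by 1.23-fold and 1.59-fold without. For Etv3 the DKO arrays read 1.21-fold to 1.23-fold higher with LPS and 1.16-fold to 1.18-fold higher without, over its 3 probe sets above the floor throughout. Etv6 was 1.24-fold and 1.23-fold higher with LPS, but 1.10-fold and 1.07-fold lower without, where equal medians turned the difference on the brighter set to 0.07. Of the progenitor markers Cd34 was 2.41-fold lower in DKO cells with LPS and 2.42-fold lower without, and of the stromal markers Pdgfrb was 2.32-fold higher in DKO cells with LPS, their part in these values being not tested.

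The other members showed smaller or divided differences. Elf2 differed by at most 1.09-fold on its 2 bright probe sets. Fli1 was 1.14-fold and 1.06-fold lower in DKO cells with LPS, and its probe sets split without LPS at -0.36 and 0.18. Gabpa was 1.45-fold higher with LPS on 1450664_at and 1.02-fold lower on 1450665_at, and the bright Elk3 probe sets were 1.09-fold and 1.31-fold lower. The dim Elk3 set 1417662_at was 1.72-fold higher with LPS and 1.49-fold lower without. Elf1 was 1.18-fold lower with LPS on its bright probe set and 1.29-fold higher on the dim one, and 1.09-fold and 1.44-fold lower without LPS. Elf4 was at least 1.21-fold higher with LPS and 1.43-fold lower without on 1421337_at, but 1.09-fold lower with LPS on 1421338_at. Ets2 and Gabpa lie on chromosome 16 with Hes1, and Elf2 and Etv3 on chromosome 3 with Hey1, each with more than 100 protein-coding genes between it and the deleted gene.

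**Figure D4:**
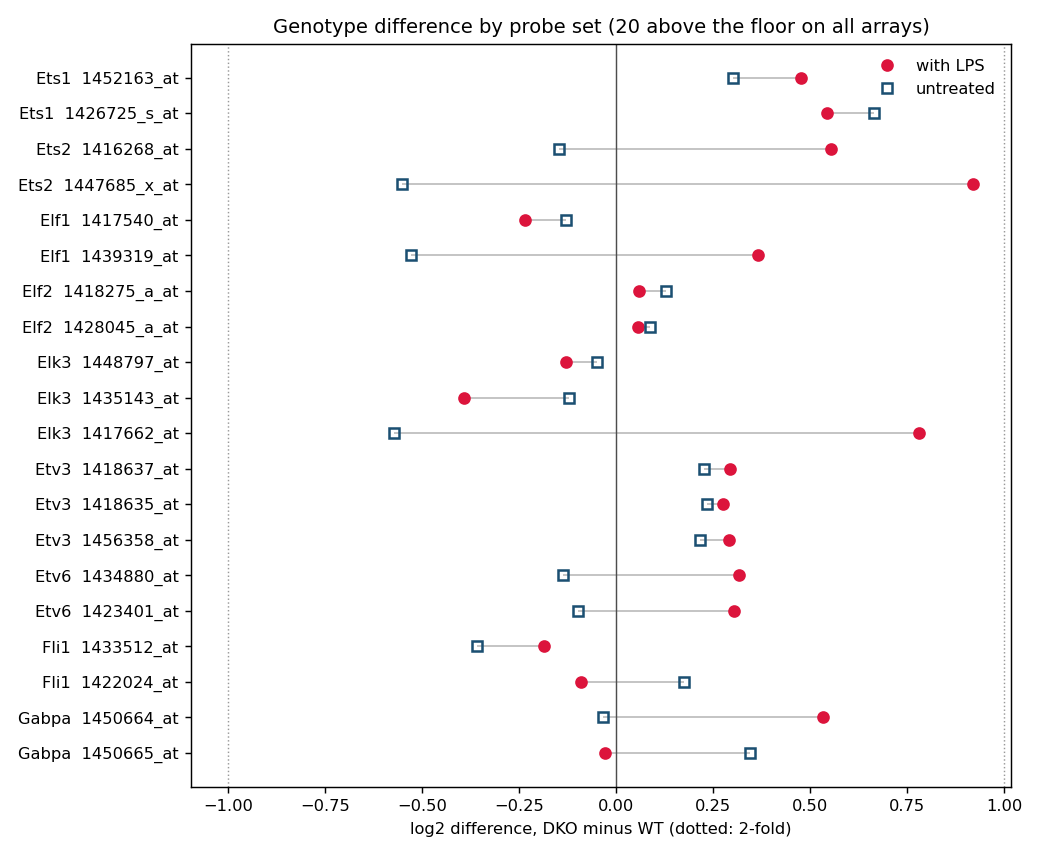
Genotype difference (log2, DKO minus WT) of the 20 probe sets that passed the floor on every array, with filled circles for LPS, open squares for untreated cells and dotted lines at 2-fold. All values lie between -0.57 and 0.92, inside the 2-fold lines. Ets1, Elf2 and Etv3 lie to the right of 0 in both conditions on every probe set shown.

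The difference of LPS effects, DKO minus WT, asks which responses depend on genotype. No member with all 4 values above the floor, 0 of 9, was called, against 1.31% of 9981 genes higher and 0.721% lower. The largest value by brightest probe set was that of Ets2, whose LPS effect was 1.62-fold larger in DKO than in WT cells and 2.78-fold larger on 1447685_x_at. Etv6 came out at 1.37-fold and 1.32-fold larger on its probe sets. With array medians set equal, Ets2 went from 0.70 to 0.49 and Etv6 from 0.45 to 0.24 on the brightest probe set. The 2 brightest probe sets of a gene lay a median of 0.27 apart in this comparison, over 4698 genes. Gabpa gave 0.57 and -0.37. Etv3 gave 0.04 to 0.07 over 3 probe sets, and -0.14 on the brightest with array medians set equal. The median was 0.17 for the members and -0.05 for all genes. The 2 brightest probe sets of a member had the same sign here for 5 of 9 genes, against 9 of 9 for LPS in DKO cells and 8 of 9 for LPS in WT cells.

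Of the 16 other family members listed, 14 were measured and 6 were under the floor on every array, among them Erg, Etv4 and Spib. Spi1 gave 7956 and 4654 units in DKO cells with and without LPS, against 7534 and 4456 in WT cells with and without LPS, or 1.71-fold and 1.69-fold. Spic, which encodes a PU.1 relative known in iron-recycling macrophages, was the only called gene of this list. It was at least 3.59-fold higher with LPS in DKO cells and at least 5.06-fold higher in WT cells. That is 1 of 7 genes in DKO cells and 1 of 8 in WT cells, beside 4.66% and 3.36% of all genes called higher. These counts are not read as above the background. The Spic probe set has a name ending in _x_at, so some of its probes may match other transcripts. It gave 42.3 units in untreated DKO cells and 4.30 in untreated WT cells, both under the floor. No gene of this list reached 2-fold between genotypes. The list's median LPS effect was 0.33 over 7 genes in DKO cells and 0.20 over 8 in WT cells, beside -0.10 and -0.09 for all genes. Spic and Etv5 passed the floor only with LPS and so could enter only as higher, and these medians are not read as a rise. Of the 5 genes above the floor on all arrays, Spi1 was higher with LPS in both genotypes and Elk1, Elk4 and Erf were lower. Elf3 was higher in DKO and lower in WT cells.

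Of 17 measured partners and cofactors, 0 were called higher with LPS, and 1 was called lower in DKO cells, the coactivator gene Mrtfa of serum response factor (-1.14, and -0.80 in WT cells). In WT cells 0 of 17 were called lower. These counts are near the shares over all genes (4.77% lower in DKO and 3.41% in WT cells), and the list's median was -0.20 in DKO and -0.14 in WT cells. Both GABP beta subunit genes were close to 0, Gabpb1 at 0.31 in DKO and 0.11 in WT cells and Gabpb2 at -0.06 and -0.14.

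Genes of the ERK cascade, which phosphorylates ETS2, and its feedback genes were called higher with LPS for 7 of 16 in DKO cells and for the same 7 of 16 in WT cells, with medians of 0.53 and 0.71, beside 4.66% and 3.36% of all genes. They were Map3k8, the kinase that couples TLR4 to ERK (2.23-fold and 2.50-fold), the scaffold gene Ksr1 (2.29-fold and 3.57-fold), the ERK phosphatase gene Dusp4 (7.34-fold and 6.12-fold), Spred1 (4.14-fold and 4.001-fold) and Spred2 (2.86-fold and 2.19-fold), both inhibitors of ERK signalling, Ier3 (3.02-fold and 2.79-fold) and Phlda1 (13.6-fold and 5.71-fold). The feedback genes Dusp6 (-0.94 and -1.36) and Spry2 (-0.97 and -1.17) were lower in both genotypes and past 2-fold in WT cells, a difference between genotypes that was not tested. Called lower were thus 2 of 16 in WT cells, beside 3.41% of all genes, and 0 of 16 in DKO cells, beside 4.77%. Between genotypes with LPS 1 of 16 genes was called, Dusp5, lower in DKO cells at 60.1 units, close to the floor, against 174 in WT cells. Over all genes 0.934% were called lower there. For the difference of LPS effects 1 of 14 was called, Phlda1, 2.37-fold larger in DKO cells, beside 1.31% of all genes.

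Of the targets of serum response factor and ternary complex factors, among which ELK3 counts, 4 of 14 were called higher with LPS in DKO cells and 2 of 13 in WT cells, with medians of 0.17 and 0.44, beside the same 4.66% and 3.36% of all genes. Egr2 (3.97-fold in DKO and 5.06-fold in WT cells) and Junb (4.55-fold and 4.61-fold) were called in both, and Vcl (2.41-fold and 1.87-fold) and Tpm4 (2.21-fold and 1.61-fold) in DKO cells. With LPS, Fos was 2.18-fold lower in DKO cells, at 3617 against 7884 units, and Btg2 was 2.00-fold higher, at 955 against 477 units. Each is 1 of 14 genes, beside 0.934% of all genes called lower and 0.845% called higher.

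The genes whose pattern over the 4 arrays lay closest to that of a called member were found by Euclidean distance between centred log2 values, among 9972 genes above the floor throughout. For Ets2 they were Marcksl1 (distance 0.31), Tnfsf9 (0.40) and Nfkbie (0.51), with LPS effects of 34.4-fold, 31.3-fold and 57.8-fold in DKO cells and 22.1-fold, 20.7-fold and 32.2-fold in WT cells. For Ets1 they were Misp3 (0.11), Hip1 (0.12) and Kbtbd3 (0.15), and for Fli1 Prxl2c (0.058), Cdc6 (0.081) and Tab1 (0.10). Over 4 arrays such a distance describes likeness of values and nothing more.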

How the data were processed

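RNA of 4 samples was amplified, labelled with biotin and hybridised to Affymetrix mouse arrays, per the labels' protocols. The deposited table gives 1 linear intensity for each of 45101 probe sets and array. From the values, the authors had scaled the deposited intensity of each array to a mean of 500 after trimming 2% at either end; the sources used here do not name the software. The array, not read depth, and the 1 array per group limit the precision.

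Of the probe sets, 64 controls were left out, 9160 were unnamed here, 34945 carried a single gene symbol and 932 more than 1. Symbols were updated through Entrez identifiers with RefSeq (GRCm38.p6). The probe set with the largest average intensity stood for its gene. Intensities under the pooled median of all probe sets were set to it, log2 differences were taken, and calls were made at a fixed 2-fold, since no test is possible. The members and lists were chosen with earlier results of these data known. All 10 members were named, with genes of other lists past 2-fold or, failing that, those with the largest differences, and the 3 genes most like each called member. Spi1, Erg, Etv4, Spib, Gabpb1 and Gabpb2, and the markers beyond the called ones, are named outside that rule, after their values were seen.

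Alternatives were 3 other scalings (equal medians, quantile, cyclic loess by limma 3.58.1 on values with 16 units added), floors at percentile 35 and 65, no floor with an offset of 16, other choices of probe set, and thresholds of 1.5-fold and 3-fold. The functions were tested on simulated data. Python 3.11.15 with numpy 2.4.6 and pandas 2.3.3, and R 4.3.3, were used. Protein sequences were not used here.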

Additional observations from a re-analysis of the deposited data

Results flagged for a closer look

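Of the probe sets above the floor on every array, those of 2 members moved in opposite directions with LPS in the 2 genotypes, on 1 array each, and the difference was not tested. For Elk3 1417662_at the LPS effect was 0.45 in DKO cells and -0.90 in WT cells, a difference of 1.35. Its values lie between 82.5 and 154 units, and the 2 brighter Elk3 probe sets gave differences of -0.08 and -0.27. For Gabpa 1450664_at the LPS effect was 0.42 in DKO cells and -0.15 in WT cells, a difference of 0.57, while the second Gabpa probe set gave -0.37. With array medians set equal the WT effect of the first was 0.07, so the opposite signs depend on the scaling.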

How the results depend on the processing

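The count of members past 2-fold with LPS in WT cells was 3. It was 1 with equal array medians, with the probe sets of a gene summarised by their median, with the second brightest probe set and at 3-fold, 2 with quantile normalization, with loess and with the floor at percentile 65, 4 with the floor at percentile 35 (Elf4 added) and 5 at 1.5-fold. The WT call of Ets1 was thus lost under all 3 other scalings, and that of Fli1 with equal medians. In DKO cells the count was 1, 2 with the second brightest probe set (Ets2 and Fli1) and 6 at 1.5-fold. Ets2 was called in both genotypes under all 11 alternatives. Of these, leaving out probe sets with names ending in _s_at or _x_at could change no member. No member's brightest probe set has such an ending, though dimmer ones of Ets1 and Ets2 do. For the difference of LPS effects the count was 0, and 1 with the floor at percentile 35 (Elf4), with the median of probe sets, with the second brightest probe set and at 1.5-fold (Ets2 in these 3). Counts of 0 between genotypes held under all 11 alternatives. No called value changed sign. Equal array medians turned the untreated difference, DKO minus WT, for Ets2 (0.07), Elf1 (0.08), Elk3 (0.16), Etv6 (0.07) and Gabpa (0.18), all below 0 as reported.

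Scaling moved the counts over all genes. With equal array medians, genes higher and lower with LPS numbered 519 and 194 in WT cells (386 and 392 as reported), those differing between untreated DKO and WT cells 97 and 43 (53 and 112), and differences of LPS effects 81 and 171 (131 and 72). Quantile normalization gave 428 and 255 for LPS in WT cells and 66 and 70 for untreated DKO against WT cells, and loess gave 447 and 219, and 65 and 70. For LPS in DKO cells loess gave 606 and 399 (524 and 536). The median over all genes was with equal array medians 0.12 in place of -0.09 for LPS in WT cells, 0.19 in place of -0.02 for untreated DKO against WT cells and -0.26 in place of -0.05 for the difference of LPS effects. Over all alternatives, genes higher and lower numbered 267 to 1009 and 138 to 1632 for LPS in DKO cells, 166 to 796 and 65 to 1481 for LPS in WT cells, 7 to 337 and 15 to 707 for untreated DKO against WT cells, and 12 to 498 and 10 to 565 with LPS. For the difference of LPS effects they numbered 23 to 1287 and 10 to 774. No paired analysis was possible because each group has 1 array. With 1 array a group, values near the floor, those of Elf4 above all, are the least certain.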
